A study of Mus musculus with 6 samples.

Results

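The Wnt signalling genes described here are 36 rows of a gene-level expression table of 21900 distinct symbols. They follow a rule on gene names: every gene called Wnt, Fzd, Sfrp or Dkk followed by a digit, with Sfrp5 left out. The rule was set with earlier results of these data known, so the members are not a blind choice or a complete family. They comprise 19 Wnt ligands, 10 frizzled receptors, 3 secreted frizzled-related proteins and 4 Dickkopf proteins. The tissue sequenced was inguinal white adipose tissue, which is fat under the skin of the groin, of C57BL/6 mice aged 2 months. The mice were housed at 22 °C on chow and then kept at 4 °C for 7 days. The 3 control samples are labelled as carrying the floxed Foxp4 gene (Foxp4fl/fl), and the labels mention no Cre in them. The 3 knockout samples (Foxp4AdipoQdelta/delta) lack Foxp4, a forkhead transcription factor, where a Cre recombinase driven by the adiponectin promoter is active, that is, in mature adipocytes. Cre and deletion go together by the labels, so their effects cannot be told apart. All 6 samples were exposed to cold, so no value below compares cold with warmth. The single comparison asks how the transcripts of cold-exposed inguinal fat differ when adipocytes lack Foxp4.

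Wnt ligands are secreted lipid-modified proteins that bind a frizzled receptor together with the co-receptor Lrp5 or Lrp6. In the canonical branch this stops the destruction complex from degrading beta-catenin, which then enters the nucleus and acts with Tcf and Lef factors. Secreted frizzled-related proteins carry a frizzled-like domain and bind ligands outside the cell, whereas Dickkopf proteins act mainly on the Lrp co-receptors. In fat, canonical Wnt signals are known for holding back the differentiation of precursors into adipocytes, and Wnt10b is the ligand best known for this.

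Values are FPKM (fragments scaled to exon length and library size), so levels can be compared between genes. Libraries held between 13180591 and 15998341 reads recovered from the FPKM values, and a single read over 1 kilobase of exon was worth 0.062 to 0.0753 FPKM. Adipocyte transcripts were abundant, with Adipoq between 823 and 1286 FPKM. Foxp4 stood at 5.76, 4.01 and 4.62 FPKM in control libraries, against 1.92, 1.71 and 1.64 FPKM in knockout libraries. Its fitted difference, knockout minus control, was -1.06 (adjusted p = 0.07 in limma). Control replicate 3 stood apart in stromal and vascular RNA: the summed FPKM of 17 progenitor and fibroblast markers was 1439 there, 618 and 728 in the other controls and 580 to 737 in the knockouts. It was also the highest library in 16 of those 17 markers and in 8 of 8 endothelial markers, against 34.5% of all genes tested. Several results below are therefore also given without this library. In whole tissue, fewer cells of a type and less RNA per cell cannot be told apart.

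No member passed the test, and the deleted gene Foxp4 did not pass it either (adjusted p = 0.07 in limma). Missing the threshold therefore does not show that a gene was unchanged. Of the 36 genes, 15 reached a mean of 1 FPKM in at least 1 group and entered the fit of all 10787 genes, and 0 passed an adjusted p of 0.05 in limma, where 1 gene of the whole table (0.00927%) did. Below that threshold, 14 of the 15 had a lower fitted level in the knockouts (66.0% of all genes tested did) and 1, Fzd6, a higher one. Dkk2 is among the 14 only because its control mean passed the filter; with a filter on the mean over all libraries 13 of 14 were lower. At an unadjusted p of 0.05 in limma, 5 were lower (33.3%, against 17.1% of all genes tested) and 0 higher (against 6.98%). The 5 were Wnt10b, Wnt11, Fzd1, Fzd2 and Sfrp1. The median difference of the 15 was -0.38 on the log2(FPKM + 1) scale, knockout minus control, and that of all genes tested was -0.082. Without control replicate 3 the median was -0.18 over 14 tested members, against -0.051 over all genes. In that fit 12 of the 14 lay below 0, and Wnt10b and Sfrp1 no longer reached an unadjusted p of 0.05, which left 3 lower (against 14.1% of all genes) and 1, Fzd6, higher (against 8.33%). After median-of-ratios scaling 4 of the 15 were lower at that p, against 10.5% of all genes, so the background moves with the scaling.

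The 36 genes spanned a wide range of levels. Fzd4 led at a mean of 47.2 FPKM over the 6 libraries, followed by Sfrp2 (14.8), Fzd1 (8.67), Fzd7 (4.65), Wnt5a (4.18) and Sfrp4 (3.71). Then came Wnt2 (2.62), Wnt10b (2.39), Wnt11 (2.05), Sfrp1 (1.95), Fzd6 (1.87), Fzd2 (1.77), Fzd8 (1.72) and Wnt9a (1.30). From Fzd7 down to Fzd8, neighbours in this order differed by less than the SD over the 6 libraries of the more variable gene. The same held for Sfrp2 (SD 11.25) and Fzd1. Sfrp2 reached 37.5 FPKM in control replicate 3, and in control replicate 1 it lay below Fzd1 (8.24 against 10.9 FPKM). The receptor sum exceeded the ligand sum in every library: the summed FPKM of the 10 frizzled genes was 52.6 to 98.9, and that of the 19 Wnt genes 10.2 to 20.6. The ligand sum includes 5 genes listed at 0 throughout, a listing not read here as absence. Fzd4 alone made up 63.4 to 76.8% of the frizzled sum, while the leading ligand, Wnt5a, made up 25.7 to 38.0% of the ligand sum. Sfrp2 made up 66.1 to 75.8% of the sum of the 3 Sfrp members, which does not include Sfrp5.

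**Figure D1:**
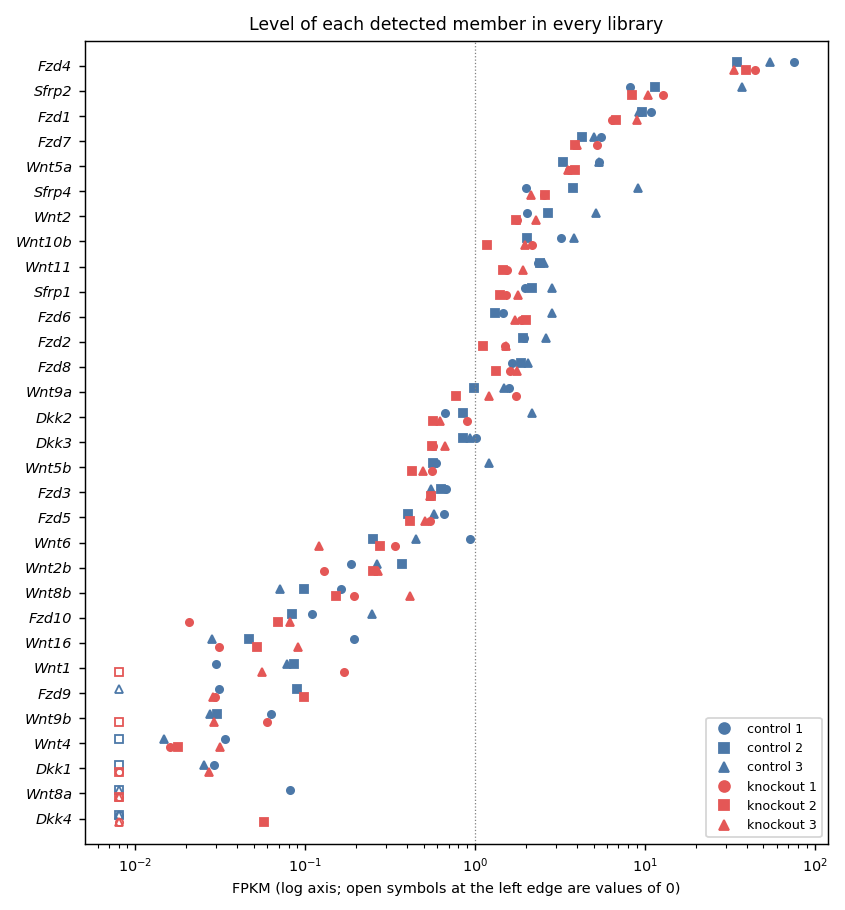
FPKM of the 31 members above 0 in at least 1 library, on a log axis, ordered by mean; blue marks controls, red knockouts, and the symbol gives the replicate. Fzd4 (33.4 to 75.9 FPKM) is the highest member in every library, and 14 genes had a mean above the dotted line at 1 FPKM.

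Among the ligands, 5 were tested and all 5 had a fitted difference below 0. Wnt11 (chromosome 7, 98835112 to 98855195, plus strand, mm10), a ligand known mainly for signalling without beta-catenin, stood at 2.37, 2.42 and 2.56 FPKM in control libraries, against 1.55, 1.47 and 1.92 FPKM in knockout libraries. Every knockout lay below every control, with 138 to 171 reads a library in controls and 81 to 120 in knockouts. Means were 2.45 ± 0.10 FPKM in controls and 1.65 ± 0.24 in knockouts (SD, n = 3), a ratio of 1.49, with a difference of -0.38 (SE 0.10, adjusted p = 0.097 in limma). Over the 12 alternative fits this difference ranged from -0.58 to -0.33 and its adjusted p from 0.096 to 0.31, and its unadjusted p was below 0.05 in each. A processed pseudogene on the other strand, Gm8398, overlaps 8.8% of the exon bases of Wnt11, and the strand setting of the counting is not given in the sources used here. Genes on the other strand also overlap exon bases of Fzd5 (17.8%), Sfrp2 (16.1%), Wnt7b (6.6%), Wnt5a (4.6%) and Fzd6 (3.2%).

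Wnt10b (chromosome 15, 98770712 to 98778150, minus strand), the ligand that restrains adipocyte differentiation, stood at 3.19, 2.03 and 3.81 FPKM in control libraries, against 2.17, 1.17 and 1.96 FPKM in knockout libraries. The lowest control lay below the highest knockout, so the groups overlapped. Means were 3.01 ± 0.90 FPKM in controls and 1.77 ± 0.52 in knockouts (SD, n = 3), a ratio of 1.70. The difference was -0.53 (SE 0.21, adjusted p = 0.18 in limma). It was -0.38 without control replicate 3 and -0.36 without knockout replicate 2.

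Wnt5a (chromosome 14, 28504750 to 28527448, plus strand), the most abundant ligand and the prototype of signalling without beta-catenin, stood at 5.39, 3.32 and 5.40 FPKM in control libraries, against 3.60, 3.87 and 3.51 FPKM in knockout libraries. The spread lay in the controls: control replicate 2 was the lowest of all 6 libraries, and the other controls were the highest. The difference was -0.27 (95% interval -0.64 to 0.10, adjusted p = 0.33 in limma). It was -0.46 without control replicate 2 (adjusted p = 0.095 in limma), -0.18 without control replicate 1 (adjusted p = 0.57) and -0.17 without control replicate 3 (adjusted p = 0.56).

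Wnt2 (chromosome 6, 17988940 to 18030585, minus strand), a canonical ligand, stood at 2.01, 2.70 and 5.20 FPKM in control libraries, against 1.77, 1.74 and 2.29 FPKM in knockout libraries. Its difference of -0.49 (95% interval -1.08 to 0.10, adjusted p = 0.28 in limma) leaned on control replicate 3, without which it was -0.19. Wnt9a (chromosome 11, 59306928 to 59333552, plus strand) showed no separation, at 1.58, 0.99 and 1.49 FPKM in control libraries, against 1.75, 0.77 and 1.21 FPKM in knockout libraries, with a difference of -0.08 (95% interval -0.51 to 0.35).

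The other 14 ligands stayed below 1 FPKM in both groups and were not tested. Wnt5b was the most abundant of them, at 0.59, 0.57 and 1.22 FPKM in control libraries, against 0.56, 0.43 and 0.50 FPKM in knockout libraries, on 15 to 52 reads per library. These groups did not overlap, by a gap smaller than the worth of 1 read. Wnt6, another canonical ligand with a role against fat cell differentiation, stood at 0.94, 0.25 and 0.45 FPKM in control libraries, against 0.34, 0.27 and 0.12 FPKM in knockout libraries. Wnt2b had a mean of 0.25 FPKM over all libraries, and Wnt8b had 0.11 ± 0.05 FPKM in controls against 0.25 ± 0.14 in knockouts (SD, n = 3), on 17 and 39 reads in all. Wnt1, Wnt4, Wnt8a, Wnt9b and Wnt16 had 2 to 28 reads each over the 6 libraries.

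Wnt3, Wnt3a, Wnt7a, Wnt7b and Wnt10a were listed at 0 in every library. Such a listing is not read here as absence, because the muscle gene Tnnc2 was also listed at 0 in all 6 libraries while another gene of that tissue, Acta1, reached 103 FPKM. Several ligand genes lie side by side in the genome. Wnt10b (2.39 FPKM) and Wnt1 (0.07 FPKM), 11.7 kb apart, differed in level. In the other pairs 1 partner is listed at 0, so no levels are compared: Wnt3a lies 16.2 kb from Wnt9a, Wnt10a 6.2 kb from Wnt6 and Wnt3 24.3 kb from Wnt9b.

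Of the 10 frizzled receptors, membrane proteins that bind Wnt ligands through an extracellular cysteine-rich domain, 6 were tested. Fzd1 (chromosome 5, 4753839 to 4758035, minus strand) stood at 10.9, 9.69 and 9.22 FPKM in control libraries, against 6.41, 6.76 and 9.05 FPKM in knockout libraries. The groups did not overlap, but knockout replicate 3 lay just under the lowest control. Means were 9.93 ± 0.85 FPKM in controls and 7.41 ± 1.43 in knockouts (SD, n = 3), a ratio of 1.34, with a difference of -0.39 (SE 0.13, adjusted p = 0.14 in limma).

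Fzd2 (chromosome 11, 102604396 to 102608058, plus strand) stood at 1.96, 1.92 and 2.61 FPKM in control libraries, against 1.51, 1.11 and 1.52 FPKM in knockout libraries, again without overlap. Its control mean of 2.16 ± 0.39 FPKM was 1.57 times its knockout mean of 1.38 ± 0.23 FPKM (SD, n = 3). The difference was -0.41 (SE 0.13, adjusted p = 0.13 in limma), and with Wnt11 it was the member whose unadjusted p was below 0.05 in all 12 alternative fits. On the scale of recovered reads, where no pseudocount of 1 FPKM dampens low genes, the Fzd2 difference was -0.65.

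Fzd4 (chromosome 7, 89404355 to 89413134, plus strand), which is also the receptor of norrin in vessels, stood at 75.9, 35.1 and 54.8 FPKM in control libraries, against 44.6, 39.5 and 33.4 FPKM in knockout libraries. The 3 controls spread more widely than the knockouts and the groups overlapped, with only knockout replicate 3 below the lowest control. A mean of 55.3 ± 20.4 against 39.2 ± 5.62 FPKM (SD, n = 3) was thus within the replicate spread. The difference was -0.43 (95% interval -1.04 to 0.18, adjusted p = 0.34 in limma). It was -0.17 without control replicate 1 and -0.72 without control replicate 2. At 3393 to 7187 reads per library, read number did not limit this comparison.

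Fzd7, Fzd8 and Fzd6 were closer between groups. Fzd7, a receptor of canonical and other Wnt signals, had 4.94 ± 0.65 and 4.36 ± 0.75 FPKM in controls and knockouts, and Fzd8 had 1.87 ± 0.20 and 1.57 ± 0.23 FPKM (SD, n = 3). Their differences were -0.15 (95% interval -0.45 to 0.15) and -0.16 (95% interval -0.41 to 0.09). Fzd6, known for planar cell polarity in skin and hair, had means of 1.87 ± 0.84 FPKM for controls and 1.87 ± 0.14 for knockouts (SD, n = 3), with control replicate 3 at 2.83 FPKM. The other controls were at 1.46 and 1.31 FPKM and the knockouts at 1.87, 2.00 and 1.73 FPKM. With that library its difference was 0.04 (95% interval -0.41 to 0.49). Without it the difference was 0.27, higher in each knockout (adjusted p = 0.19 in limma).

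The remaining receptors were below the level for testing. Fzd3 had 0.62 ± 0.06 and 0.55 ± 0.0040 FPKM and Fzd5 had 0.55 ± 0.13 and 0.49 ± 0.07 FPKM in controls and knockouts (SD, n = 3). Fzd10 stood at 0.11, 0.08 and 0.25 FPKM in control libraries, against 0.02, 0.07 and 0.08 FPKM in knockout libraries, on 22 and 8 reads in all. Fzd9 had 9 reads over the 6 libraries.

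**Figure D2:**
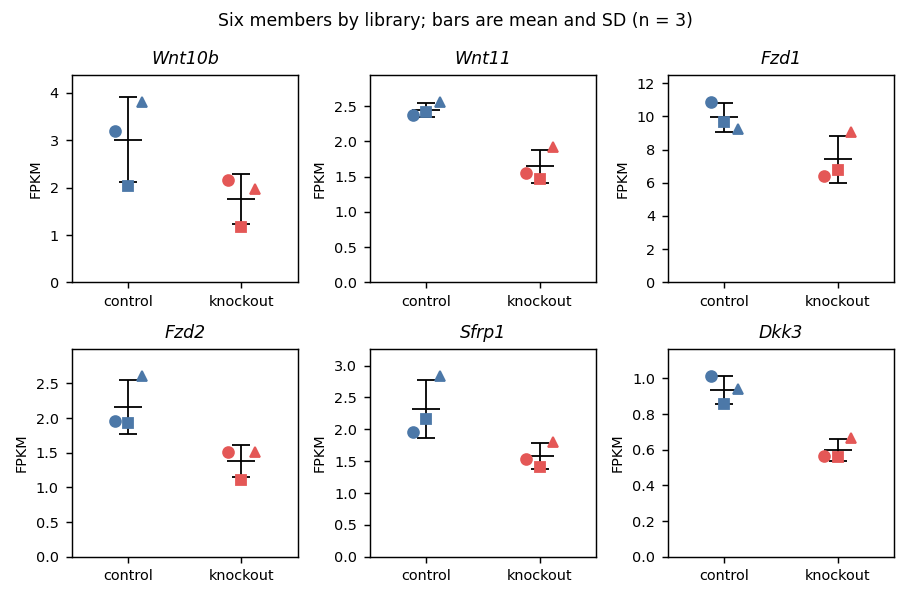
FPKM by library for Wnt10b, Wnt11, Fzd1, Fzd2, Sfrp1 and Dkk3, each axis starting at 0; circles, squares and triangles are replicates 1, 2 and 3, and bars give the mean and SD of 3 samples. The knockouts lie below all controls in each panel except that of Wnt10b, where 2.17 FPKM in knockout replicate 1 exceeds 2.03 FPKM in control replicate 2.

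The secreted frizzled-related proteins were the family in which control replicate 3 weighed most. Sfrp2 (chromosome 3, 83766321 to 83774316, plus strand), made by stromal cells of many tissues, stood at 8.24, 11.6 and 37.5 FPKM in control libraries, against 12.8, 8.46 and 10.4 FPKM in knockout libraries. Control replicate 3 was far above the rest, and the other 5 libraries overlapped. The difference of -0.53 (95% interval -1.67 to 0.61, adjusted p = 0.53 in limma) turned to 0.083 without that library. Sfrp4 (chromosome 13, 19623104 to 19632994, plus strand) stood at 2.00, 3.78 and 9.19 FPKM in control libraries, against 2.54, 2.58 and 2.15 FPKM in knockout libraries, with a difference of -0.63 (adjusted p = 0.36 in limma) that was -0.15 without control replicate 3.

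Sfrp1 (chromosome 8, 23411502 to 23449632, plus strand), an inhibitor linked to fat cell formation, stood at 1.96, 2.16 and 2.84 FPKM in control libraries, against 1.53, 1.41 and 1.80 FPKM in knockout libraries. All knockouts lay below all controls. Means were 2.32 ± 0.46 FPKM in controls and 1.58 ± 0.20 in knockouts (SD, n = 3), a ratio of 1.47. The difference was -0.36 (SE 0.12, adjusted p = 0.15 in limma). Without control replicate 3 it was -0.25.

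The Dickkopf genes were low throughout. Dkk2 (chromosome 3, 132085292 to 132180304, plus strand) stood at 0.67, 0.85 and 2.18 FPKM in control libraries, against 0.89, 0.57 and 0.62 FPKM in knockout libraries. It entered the test only through the control mean of 1.23 FPKM, which control replicate 3 raised, and without that library it was no longer tested. Dkk3 (chromosome 7, 112116017 to 112159057, minus strand), the most divergent of the family, stood at 1.01, 0.86 and 0.94 FPKM in control libraries, against 0.56, 0.56 and 0.67 FPKM in knockout libraries. Its groups did not overlap, its control mean was 1.57 times its knockout mean, and it lay just under the level for testing. In the fit without a filter its difference was -0.28 (adjusted p = 0.15 in limma). Dkk1, the classic Lrp inhibitor, had 3 reads over the 6 libraries and Dkk4 had 1.

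**Figure D3:**
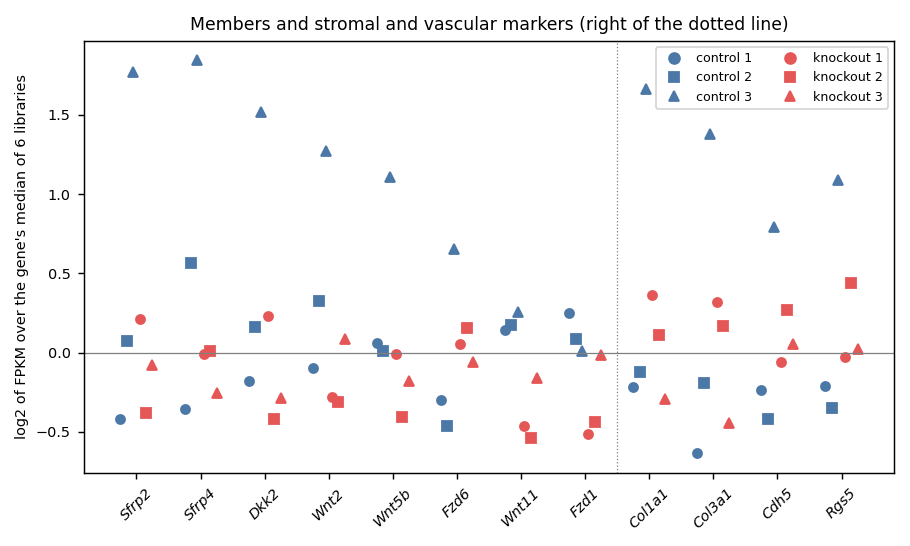
Each library's FPKM relative to the gene's median over the 6 libraries, on a log2 axis, for 8 members and for the fibroblast markers Col1a1 and Col3a1, the endothelial marker Cdh5 and the pericyte marker Rgs5; symbols give replicates and colours groups. Control replicate 3 (blue triangle) is the highest library in all genes shown except Fzd1, where control replicate 1 is the highest.

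Control replicate 3 was the highest library in 11 of the 15 tested members, against 34.5% of all genes tested. It was highest in the fibroblast collagens as well, with Col1a1 at 54.1, 57.8 and 199 FPKM in control libraries, against 80.9, 67.7 and 51.2 FPKM in knockout libraries. Sfrp2 and Col1a1 thus had the same outlying library. Fzd1, Fzd4, Fzd7 and Wnt9a lay outside this pattern. Control replicate 1 was the highest library in Fzd1, Fzd4 and Fzd7, and knockout replicate 1 in Wnt9a. In Fzd1, control replicate 3 was the lowest of the controls. The progenitor and fibroblast list as a whole had 6 of 17 members lower at an unadjusted p of 0.05 in limma (35.3%, against 17.1% of all genes tested), with a median of -0.38. Of the 17, 7 were lower in every knockout than in every control (41.2%, against 22.7% of all genes tested) and 0 were higher (against 8.48%). Without control replicate 3 the list had 4 lower by the unadjusted p (23.5%, against 14.1% of all genes) and 1 higher (against 8.33%). Its median was then -0.12, against -0.051 over all genes. Decorin (Dcn), of that list, had 171 ± 24.3 FPKM in controls against 124 ± 4.59 in knockouts (SD, n = 3). The part of stromal cell content in the values of the Wnt signalling genes was not tested.

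Markers of other cell types also differed between libraries. All 10 macrophage markers were lower in the knockouts at an unadjusted p of 0.05 in limma, against 17.1% of all genes tested (summed FPKM 599 to 806 in controls and 382 to 494 in knockouts). The sum of 8 endothelial markers was 122 to 230 FPKM in controls against 128 to 168 in knockouts, that of 8 mural markers 63.0 to 146 and 77.5 to 88.1 FPKM, and that of 10 skeletal muscle markers 17.05 to 70.7 and 21.7 to 333 FPKM. The 12 adipocyte markers summed to 13490 to 15040 FPKM in controls against 10840 to 11740 in knockouts, and the 5 Schwann cell markers to 53.5 to 83.9 and 48.1 to 67.1 FPKM. By single genes, 3 of the 12 adipocyte markers were lower in every knockout than in every control (25.0%, near the 22.7% of all genes tested). In the other direction, 0 were higher in every knockout (against 8.48%). Cfd, the adipocyte marker with the highest mean, weighed most in the adipocyte sum. It had 6162 ± 419.9 FPKM in controls against 4000 ± 420.5 in knockouts (SD, n = 3). Fabp4 had 2539 ± 273.7 and 2483 ± 42.1 FPKM (SD, n = 3). Of the 12, 3 were lower at an unadjusted p of 0.05 in limma (25.0%, against 17.1% of all genes tested) and 0 higher (against 6.98%). Of the 5 Schwann cell markers, 1 was lower (20.0%, near that 17.1%) and 1, S100b, higher. Epithelial markers were near 0, with sums of 1.06 to 2.14 and 0.56 to 1.03 FPKM and Krt14 and Krt15 listed at 0 throughout, as were mesothelial markers at 0.68 to 1.44 and 0.49 to 0.82 FPKM. Lymph node markers summed to 3.09 to 5.47 FPKM in controls against 2.25 to 4.84 in knockouts. The part of these cell types in the differences above was not tested.

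**Figure D4:**
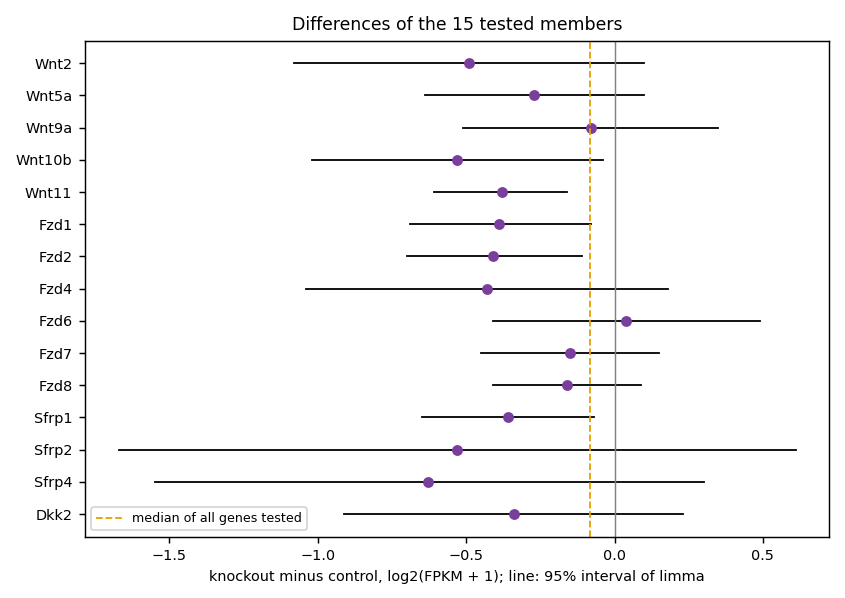
Knockout minus control difference on the log2(FPKM + 1) scale for the 15 tested members, with the 95% interval of limma; the dashed line is the median of all 10787 genes tested, -0.082. All points but that of Fzd6 lie below 0, and 5 intervals (Wnt10b, Wnt11, Fzd1, Fzd2 and Sfrp1) do not reach 0.

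Because 3 of the 5 lower members have an entry in the RefSeq promoter table (build GRCm38.p6, the assembly of mm10), their upstream sequence is shown: the 250 bases before a RefSeq start, read 5′ to 3′ on the strand of the gene. The windows are chr7:98834862-98835111 (plus strand) for the first of the 2 listed Wnt11 starts, chr15:98778151-98778400 (minus strand) for Wnt10b and chr5:4758217-4758466 (minus strand) for Fzd1. They were searched on both strands for the forkhead motif GTAAACA, the kind of sequence that Foxp proteins bind, and for the Tcf/Lef motif ATCAAAG, and capitals mark a match.
Wnt11: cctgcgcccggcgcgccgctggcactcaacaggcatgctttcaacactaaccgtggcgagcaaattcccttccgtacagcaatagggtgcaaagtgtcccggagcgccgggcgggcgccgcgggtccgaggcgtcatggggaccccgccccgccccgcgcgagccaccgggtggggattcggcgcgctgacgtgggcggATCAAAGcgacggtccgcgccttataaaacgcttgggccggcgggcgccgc
Wnt10b: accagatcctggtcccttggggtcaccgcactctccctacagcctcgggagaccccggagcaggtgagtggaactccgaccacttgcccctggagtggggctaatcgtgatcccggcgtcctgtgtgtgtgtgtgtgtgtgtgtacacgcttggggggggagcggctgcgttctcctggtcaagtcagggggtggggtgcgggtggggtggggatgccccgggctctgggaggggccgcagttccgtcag
Fzd1: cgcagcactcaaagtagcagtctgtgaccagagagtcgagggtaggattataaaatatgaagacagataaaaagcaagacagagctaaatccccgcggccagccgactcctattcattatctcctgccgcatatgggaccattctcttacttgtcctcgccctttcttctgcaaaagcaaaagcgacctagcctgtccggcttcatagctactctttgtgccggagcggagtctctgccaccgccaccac
The Tcf/Lef motif starts 51 bases before the Wnt11 start, and Wnt10b and Fzd1 hold neither motif. Over 27 windows of 24 members with an entry, the forkhead motif was in 0 and the Tcf/Lef motif in 2, those of Wnt11 and Wnt5b. Among all 32851 such windows the shares were 3.17% and 3.21%. A match or its lack in a window of this length says nothing of whether a factor binds the gene. The GC content was 70.8% for Wnt11, 66.8% for Wnt10b and 51.2% for Fzd1, against a median of 52.4% over all windows.

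The secretion list holds genes that load and release ligands. Of its 5 tested members, 4 were lower at an unadjusted p of 0.05 in limma (against 17.1% of all genes tested), 0 were higher (against 6.98%) and 0 passed the adjusted threshold. Without control replicate 3, Gpc6 no longer reached that p and 3 were lower. The fifth, Gpc4, had 13.6 ± 1.72 and 13.2 ± 1.12 FPKM in controls and knockouts (SD, n = 3). Porcn, the enzyme that attaches the lipid to Wnt proteins, stood at 4.02, 3.51 and 3.10 FPKM in control libraries, against 2.75, 2.59 and 2.86 FPKM in knockout libraries. Wls, the carrier that brings them to the cell surface, stood at 8.78, 8.83 and 9.10 FPKM in control libraries, against 7.43, 7.05 and 7.48 FPKM in knockout libraries. Neither overlapped between groups, and the differences were -0.28 for Porcn and -0.25 for Wls (adjusted p = 0.15 and 0.11 in limma). The glypican genes Gpc3 (14.9 ± 3.98 and 9.42 ± 1.01 FPKM) and Gpc6 (1.40 ± 0.21 and 0.91 ± 0.25 FPKM) were also lower by that measure (SD, n = 3).

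Of the other secreted or membrane-bound antagonists, 3 of 10 were tested. By the unadjusted p in limma, 2 were lower (66.7%, against 17.1% of all genes tested) and 0 were higher (against 6.98%). Igfbp4, an insulin-like growth factor binding protein that can also block Wnt receptors, stood at 120, 109 and 108 FPKM in control libraries, against 74.9, 59.4 and 73.0 FPKM in knockout libraries (difference -0.70, adjusted p = 0.070 in limma). Apcdd1, a membrane inhibitor of Wnt signalling, stood at 16.04, 8.31 and 7.09 FPKM in control libraries, against 6.59, 4.29 and 5.01 FPKM in knockout libraries. Kremen1, a Dickkopf receptor, had 3.87 ± 0.70 and 3.81 ± 0.11 FPKM (SD, n = 3).

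Of the co-receptors and the machinery that sets receptor turnover, 1 of 5 tested members was lower at an unadjusted p of 0.05 in limma (20.0%, near the 17.1% of all genes tested) and 0 were higher (against 6.98%). That member was the R-spondin receptor gene Lgr4 (4.48 ± 0.41 and 3.35 ± 0.65 FPKM, SD, n = 3). Lrp6 had 10.7 ± 1.16 and 9.57 ± 0.39 FPKM, and the receptor ligase gene Znrf3 had 1.60 ± 0.16 and 1.45 ± 0.03 FPKM (SD, n = 3). Lgr6, another R-spondin receptor gene, varied most, at 0.08, 1.60 and 3.53 FPKM in control libraries, against 6.88, 5.06 and 2.16 FPKM in knockout libraries, with overlap and a difference of 1.19 (95% interval -0.08 to 2.46). In the list for the norrin receptor 0 of 3 tested members reached an unadjusted p of 0.05 in limma. Tspan12, which works with Fzd4, had 60.5 ± 1.76 and 65.3 ± 2.504 FPKM, Reck 5.14 ± 0.99 and 3.91 ± 0.73 FPKM and Adgra2 2.47 ± 0.66 and 1.83 ± 0.30 FPKM (SD, n = 3).

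In the list for receptors outside the beta-catenin branch and planar polarity, 1 of 7 tested members was lower at an unadjusted p of 0.05 (14.3%, near the 17.1% of all genes tested). This was Celsr2, an adhesion receptor of planar polarity, at 2.16, 2.40 and 3.07 FPKM in control libraries, against 1.04, 1.18 and 0.94 FPKM in knockout libraries (difference -0.78, adjusted p = 0.070 in limma). Vangl1 had 1.96 ± 0.19 and 1.80 ± 0.13 FPKM, Prickle1 2.79 ± 0.65 and 2.20 ± 0.16 FPKM and Daam2 1.38 ± 0.43 and 0.93 ± 0.09 FPKM (SD, n = 3).

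Inside the cell, 2 of the 13 tested destruction complex and Dishevelled genes were lower by the unadjusted p (15.4%, near the 17.1% of all genes tested) and 1 was higher (against 6.98%), with a median difference of -0.06. Without control replicate 3, Tnks no longer reached that p and 1 was lower. Btrc, a ubiquitin ligase subunit that marks beta-catenin for degradation, stood at 1.68, 1.69 and 1.43 FPKM in control libraries, against 1.01, 1.03 and 1.25 FPKM in knockout libraries. The tankyrase gene Tnks had 3.96 ± 0.16 and 3.39 ± 0.14 FPKM and Dvl2 had 2.05 ± 0.22 and 1.56 ± 0.41 FPKM (SD, n = 3). The kinase gene Gsk3a was the higher member, at 15.6 ± 0.37 and 17.9 ± 1.06 FPKM (SD, n = 3).

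Of the nuclear partners of beta-catenin, 5 of 12 tested members were lower at an unadjusted p of 0.05 in limma and 0 were higher (41.7% lower, against 17.1% of all genes tested). Pygo1, 1 of these 5, entered the test only through its control mean, and with a filter on the mean over all libraries 4 of 11 were lower. The DNA-binding factor genes Tcf7l2 and Tcf7l1 led. Tcf7l2 stood at 3.61, 2.39 and 2.81 FPKM in control libraries, against 1.70, 1.45 and 1.85 FPKM in knockout libraries, and its difference was -0.55 (adjusted p = 0.092 in limma). Tcf7l1 stood at 5.63, 4.48 and 5.25 FPKM in control libraries, against 3.89, 3.72 and 3.42 FPKM in knockout libraries, and its difference was -0.38 (adjusted p = 0.098 in limma). Neither overlapped between groups. The corepressor gene Tle4 had 2.20 ± 0.04 and 1.56 ± 0.15 FPKM, and the coactivator gene Bcl9 2.25 ± 0.40 and 1.61 ± 0.16 FPKM (SD, n = 3).

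**Figure D5:**
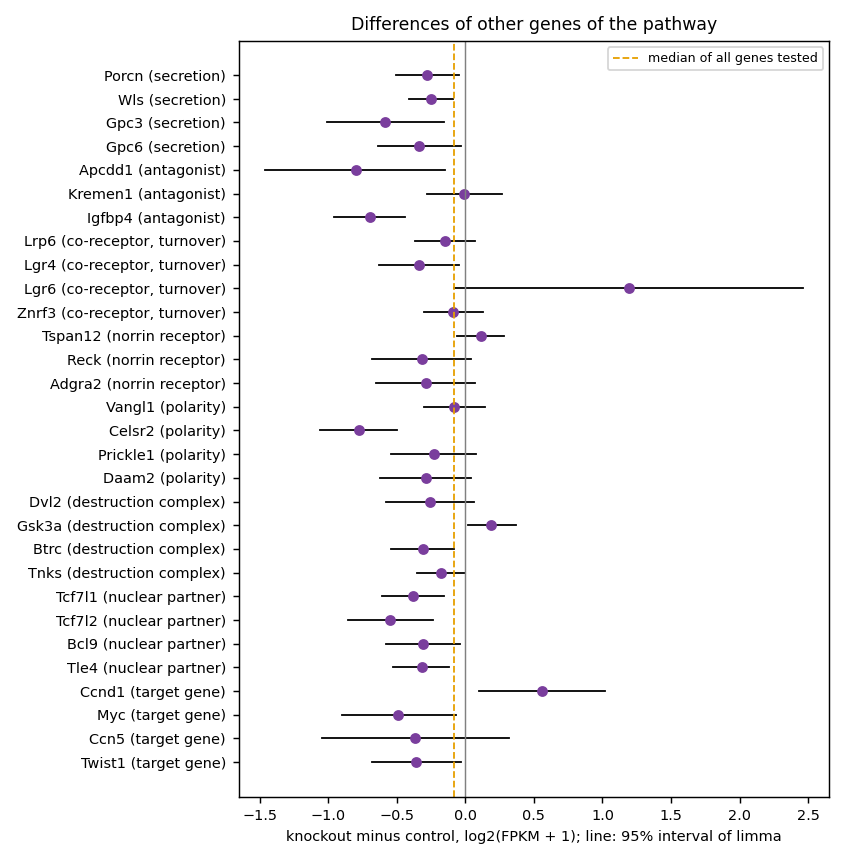
Knockout minus control difference on the log2(FPKM + 1) scale for other genes of the pathway, up to 4 per list with the smallest p, with the 95% interval of limma; the dashed line is the median of all genes tested. Igfbp4 and Celsr2 (adjusted p = 0.070 each in limma) lie lowest apart from Apcdd1, and Lgr6 has the widest interval.

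Of 17 genes used as readouts of beta-catenin activity, 8 were tested. At an unadjusted p of 0.05, 2 of these were lower (25.0%, against 17.1% of all genes tested) and 1 was higher (against 6.98%), with 0 past the adjusted threshold in limma. Without control replicate 3, Twist1 no longer reached that p and 1 was lower. Ccnd1, a cyclin that drives the cell cycle, stood at 1.79, 1.76 and 3.52 FPKM in control libraries, against 3.98, 4.13 and 3.37 FPKM in knockout libraries. Myc had 4.01 ± 0.54 and 2.63 ± 0.87 FPKM and the mesenchymal factor gene Twist1 15.7 ± 2.73 and 11.99 ± 1.28 FPKM (SD, n = 3). Axin2, the most general readout of the canonical branch, stood at 2.60, 1.07 and 2.42 FPKM in control libraries, against 2.58, 2.97 and 1.91 FPKM in knockout libraries. The groups overlapped, with a difference of 0.23 (adjusted p = 0.55 in limma). Axin2 was named for its role as a readout, outside the rule for naming genes. Ccn5, a matrix protein gene, had 4.39 ± 0.07 and 3.49 ± 2.20 FPKM (SD, n = 3), with knockout replicate 3 at 6.01 FPKM above every control.

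Of the 15 tested members, 4 were lower in every knockout than in every control (26.7%, near the 22.7% of all genes tested). In the other direction, 0 were higher in every knockout (against 8.48%). The 4 lower members were Wnt11, Fzd1, Fzd2 and Sfrp1. Among the members that were not tested, Wnt5b, Fzd10 and Dkk3 were lower in every knockout, and the share over untested genes was not counted. Fzd10 rested on 22 reads in controls and 8 in knockouts, and the gap of Wnt5b was smaller than the worth of 1 read.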

How the data were processed

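Polyadenylated RNA was made into libraries with a stranded kit and sequenced on an Illumina instrument, per the labels' protocols; cutadapt, HISAT2, HTSeq and build mm10 are named in the submitters' processing notes, with versions, annotation and strand setting not given in the sources used here. The deposited values are FPKM per gene as the authors computed them, with 1 column per sample; the unit was read from the values. FPKM times the merged exon length (GENCODE M21) was a whole read number (tolerance 0.05) in 97.92 to 98.08% of values of at most 50 reads. Of 21936 rows, 36 that repeat a symbol were left out.

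Genes whose mean reached 1 FPKM in the control or the knockout group were tested on log2(FPKM + 1) over all 6 samples with limma 3.58.1 in R 4.3.3 (trended variance), with Benjamini-Hochberg adjustment over all 10787 genes. Differences are knockout minus control on that scale, which understates those of low genes; an exact test of 3 against 3 cannot go below 0.10. The design foresaw this test for FPKM. Members and lists were chosen with earlier results of these data known. Every member is named. Of each pathway list up to 4 tested genes with the smallest p are named, and cell type lists are given mainly as sums. The labels do not say whether samples are separate mice, so p-values reflect only the spread among them, which may be technical. The fit was tested on simulated data. Alternatives were a pseudocount of 0.1, no filter, a filter on the overall mean, median-of-ratios scaling, voom on recovered reads, the replicate number as a block, and leaving out each library in turn.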

Additional observations from a re-analysis of the deposited data

How the results depend on the processing

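No member passed an adjusted p of 0.05 in limma in the fit as reported or under any of the 12 alternatives, voom included; the lowest adjusted p was 0.095. Of 178 fold changes of tested members under alternatives, 174 kept their sign. The 4 exceptions came from leaving out single libraries: Sfrp2 (0.083 without control replicate 3, range -0.95 to 0.083), Wnt9a (0.077 without knockout replicate 2, range -0.24 to 0.077) and Fzd6 (-0.055 without control replicate 1, -0.10 if control replicate 2 was left out, range -0.10 to 0.27). The cause was not tested.

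The number of members lower at an unadjusted p of 0.05 in limma was 5 of 15 as reported (17.1% of all genes lower). In the fits with all libraries it was 4 to 6, with 4 of 15 after median-of-ratios scaling (10.5%) and 6 of 31 without a filter (12.7%). With 5 libraries it lay between 2 and 7. It was 2 without knockout replicate 2 (10.2%), 3 without control replicate 3 (14.1%) or knockout replicate 1 (12.6%) and 7 without control replicate 2 (19%). The number higher was 0 to 1. Over all genes, 1 passed in limma, and 0 passed without a filter (2980 at an unadjusted p of 0.05), with the replicate block (2218) and with voom (2576); leaving out 1 library gave 0 to 5. With the replicate block 6 of 15 members were lower at an unadjusted p of 0.05 in limma (against 14.6% of all genes). Same-numbered samples share only a number: their deviations from the group means correlated at 0.065, 0.027 and -0.254. Knockouts lay below all controls in 4 of the 15 tested members as reported (against 22.7% of all genes). After median-of-ratios scaling they did so in 3 (against 14.1%). When each library was divided by its summed fibroblast markers, a scaling chosen after seeing the data, they did so in 0 (against 0.2%). Under that scaling 1 member, Fzd6, was higher without overlap, and the share of all genes higher was not counted.

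Of the 16 members with reads that were not tested, 9 had 30 reads or fewer over 6 libraries, so depth limits these. The longer Fzd3, with 659 reads, was left out by the filter on FPKM. For the tested members the report gives the spread between libraries.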
